A study of Homo sapiens with 40 samples.

Results

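The RNA that coprecipitated with endogenous eIF4A1 was compared with total RNA of the same HEK293 lysates. HEK293 is an established human embryonic kidney cell line. The comparison took the libraries titled as eIF4A1 IP and as total RNA of the RNA immunoprecipitation experiment (RIP-Seq), 3 of each, so that 6 of the 40 libraries of the series were members, and it was made across all 17474 genes that passed a filter on low counts, of 55765 symbols counted. The cells were unmodified and received no siRNA. The native immunoprecipitation (IP) lasted 20 min, and the total RNA was set aside from each lysate beforehand. No library of a mock IP was used here, so a change is relative to total RNA and to all other genes of the library, and RNA that adheres to beads or antibody cannot be told apart from RNA bound through eIF4A1. Libraries of the eIF4A2 and DDX6 IPs from the same experiment (n = 3 each) and of sucrose gradients from HEK293 cells with control siRNA (input, a subpolysomal pool of fractions 1 to 5 and a polysomal pool of fractions 6 to 11, n = 4 each) served as comparisons.

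eIF4A1 is the DEAD-box RNA helicase of eIF4F, the complex that assembles on the mRNA cap. It uses ATP to open base-paired RNA ahead of the start codon, which lets the small ribosomal subunit scan, and mRNAs differ in how far their translation depends on it. Its close paralogue eIF4A2 has also been tied to repression through the Ccr4-Not deadenylase complex, and DDX6 is a DEAD-box helicase of decapping and translational repression. TOP mRNAs, which encode ribosomal proteins and elongation factors, start with a C followed by a run of pyrimidines, and their translation is set by growth signals through mTOR and LARP1.

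Total counts ran from 29.5 to 43.5 M for total RNA (M, mega) and from 38.3 to 46 M for the eIF4A1 IP. Reads carried no molecular identifiers, so depth covers counting error only. Nothing in the labels says that equal numbers of a group were separate cultures, and p-values measure the spread between these samples. Total RNA replicate 3 stood apart: its log2 values correlated with replicates 1 and 2 by 0.9772 and 0.9749 across genes, against 0.9952 between those. Its title numbers it 3 while its GEO description numbers it replicate 2, as for the library titled replicate 2. The title was used, so the pair medians and the replicate block rest on it. All 7 markers of HEK293 cells were counted, with a sum of 4310 to 5373 CPM (counts scaled to 1 common library total) in total RNA and 964 to 1575 CPM in the IP, most of it from NEFM and NEFL. Of 9 markers of other cells 8 had any count, their sum was 5.43 to 9.3 and 2.98 to 4.4 CPM, only COL3A1 and GFAP exceeded 1 CPM in any library, and KRT5 was at 0. The HEK293 markers INA (2.55 to 5.22 CPM) and PAX2 (0.598 to 1.59 CPM) lay within the range of COL3A1 and GFAP (0.454 to 8.38 CPM). All samples were bulk RNA, in which the number of cells that express a gene and the RNA per cell cannot be told apart.

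To show what the coding sequences of the most changed genes looked like, the 30 nt with most purine tetramers were read from the coding sequence (CDS) of the 4 coding genes that rose most and the 4 that fell most in the IP, among called genes that averaged 10 CPM or more and whose groups did not overlap. The 8 tetramers, AAGA or its permutations AGAA along with GAAA, the alternating GAGA or else AGAG, those with paired bases, GGAA next to GAAG, plus the all-adenine AAAA, were searched on the mRNA strand without overlap and stand in capitals. Positions are GRCh37.
ZBTB42 (chr14:105267891-105267920, + strand, log2 fold change 2.59): gGAGAaggatcGAAGtctggacccggGGAA
C15orf59 (chr15:74032497-74032526, - strand, log2 fold change 2.45): acggtgagcaggaggtggaggaGGAAGAAG
FAM189A1 (chr15:29544584-29544613, - strand, log2 fold change 2.35): cAGAAtgctcagctagtcaactccctAGAA
GRAMD4 (chr22:47022714-47022743, + strand, log2 fold change 2.28): cAAAAtcaggttcAGAGgtcacAAGAGAGA
RPL36A (chrX:100646743-100646772, + strand, log2 fold change -3.57): GAAAgcggcgttatgacaGGAAgcAGAGtg
CPVL (chr7:29070264-29070293, - strand, log2 fold change -2.80): gatcccaGGAAtacAAGAaggcAGAAAAAA
HSPA4 (chr5:132439984-132440013, + strand, log2 fold change -2.79): AAAAgaGGAAcAAAAaaatgcAGAGcAGAA
HSPA5 (chr9:127998960-127998989, - strand, log2 fold change -2.68): tcaaagctAAGAAGAAGGAActGGAAGAAA
Over the whole CDS the first 4 mRNAs held 1.58, 1.37, 0.989 and 3.0 tetramers per 100 nt at a GC content of 66.4, 62.8, 63.0 and 57.7%. The other 4 held 4.4, 3.29, 4.4 and 4.69 tetramers per 100 nt at 47.2, 44.7, 42.1 and 47.7% GC. These genes were chosen by their fold change, and the numbers describe them only.

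To ask which RNAs were over- and under-represented with eIF4A1, the IP was compared with total RNA by edgeR's quasi-likelihood test, with genes called where the FDR (Benjamini-Hochberg) lay under 0.05. In the IP 4555 genes were higher (26.1% of those tested) and 4638 were lower (26.5%). The median log2 fold change was 0.04, the central range from the 25th to the 75th percentile was -0.58 to 0.62, and the tails were uneven. At least 2-fold changes were called for 2056 higher and 2228 lower genes, and at least 4-fold changes for 120 higher and 410 lower genes. Abundant RNAs lost share. The 500 genes with the highest level in the separate control siRNA inputs held 36.7, 37 and 33.6% of all counts in total RNA replicates 1 to 3, and 23.4, 25.2 and 24.7% in the IP.

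**Figure D1:**
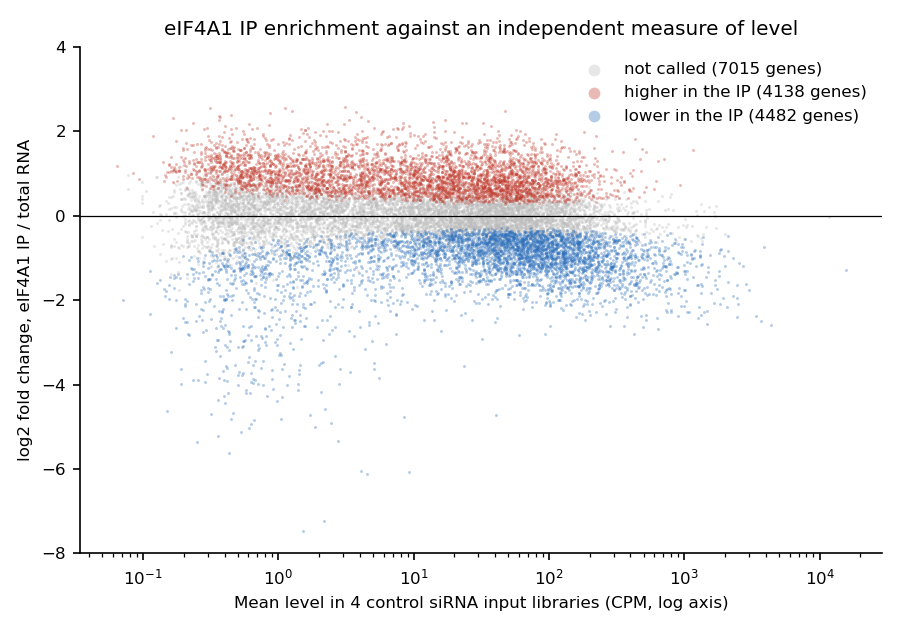
Log2 fold change of the eIF4A1 IP over total RNA (vertical axis) against the mean level in the control siRNA input libraries (horizontal axis, CPM, log scale). Each point is a gene, red where called higher in the IP, blue where called lower and grey where not called. Genes with high input levels lie mostly below 0: in the top level quintile of coding genes 12.6% were higher and 55.4% lower in the IP.

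Among called genes at 10 CPM or more on average and without overlap of the groups, ZBTB42, which encodes a zinc finger protein, rose most (GRCh37 chromosome 14, 105266933 to 105271049). Genes of lower level with larger fold changes were left out of this order. It had 3.89, 4.89 and 2.3 CPM in total RNA and 28.6, 22.1 and 16.6 CPM in the IP (log2 fold change 2.59, SE 0.25, FDR 4.64e-06). GRAMD4 rose from 34.7, 36.1 and 38.9 CPM to 206, 151 and 174 CPM (chromosome 22, 46971909 to 47075687, log2 2.28). All IP libraries exceeded all total RNA libraries for both genes, and for GRAMD4 they did so by more than the spread within a group. B3GALT6, which encodes a galactosyltransferase of glycosaminoglycan synthesis, had 39.0, 40.2 and 32.5 CPM in total RNA and 185, 191 and 141 CPM in the IP (chromosome 1, 1167617 to 1170421, log2 2.21). FJX1, C17orf96, MESDC1, ADRA2C (an adrenergic receptor), FAM189A1, C15orf59 and the unplaced symbol RP11-215G15.5 made up the other 7 of the 10 largest increases, at log2 fold changes of 2.20 to 2.48. The 9 of these genes with a CDS had a median GC content of 69.7% (range 57.7 to 75.5), and 6 of them had a single exon, against a median of 52.6% and 304 single-exon genes among the 13683 coding genes tested.

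The largest decrease by the same limits was that of RN7SL1, the RNA of the signal recognition particle, which had 164, 30.2 and 45.7 CPM in total RNA and 3.23, 3.97 and 1.88 CPM in the IP (log2 fold change -4.72, SE 0.57, FDR 2.21e-05). Its level in total RNA replicate 1 was several times that in the other libraries, yet all of them exceeded the IP. HSPA5, the chaperone BiP of the endoplasmic reticulum (ER), had 629, 669 and 692 CPM in total RNA and 106, 90.5 and 115 CPM in the IP (chromosome 9, 127997132 to 128003661, log2 -2.68, SE 0.17, FDR 7.84e-07). HSPA4, a cytosolic Hsp70-type chaperone, had 358, 423 and 337 CPM in total RNA and 42.8, 56.7 and 61.6 CPM in the IP (chromosome 5, 132387705 to 132442141, log2 -2.79). For both chaperones the groups were far apart and each group was tight. MIR17HG, the host transcript of the miR-17-92 cluster, fell from 46.9, 49.3 and 87.6 CPM to 9.48, 7.75 and 7.27 CPM (log2 -2.91). HNRNPU-AS1 fell by 2.82 on the log2 scale, beside HNRNPU, its antisense partner, at -2.16, and as the strand option of the counting is not stated the reads of this pair may not be told apart. CPVL (-2.80), MYH9 (-2.64, non-muscle myosin heavy chain), RSL1D1 (-2.62) and CLU (-2.62, clusterin) were also among the 10 largest decreases. RPL36A, a ribosomal protein gene, showed the largest drop of a placed gene at this level, from 37.1, 40.5 and 67.1 CPM to 4.21, 3.97 and 3.97 CPM (log2 -3.57). It overlaps a readthrough gene, so its counts are uncertain.

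**Figure D2:**
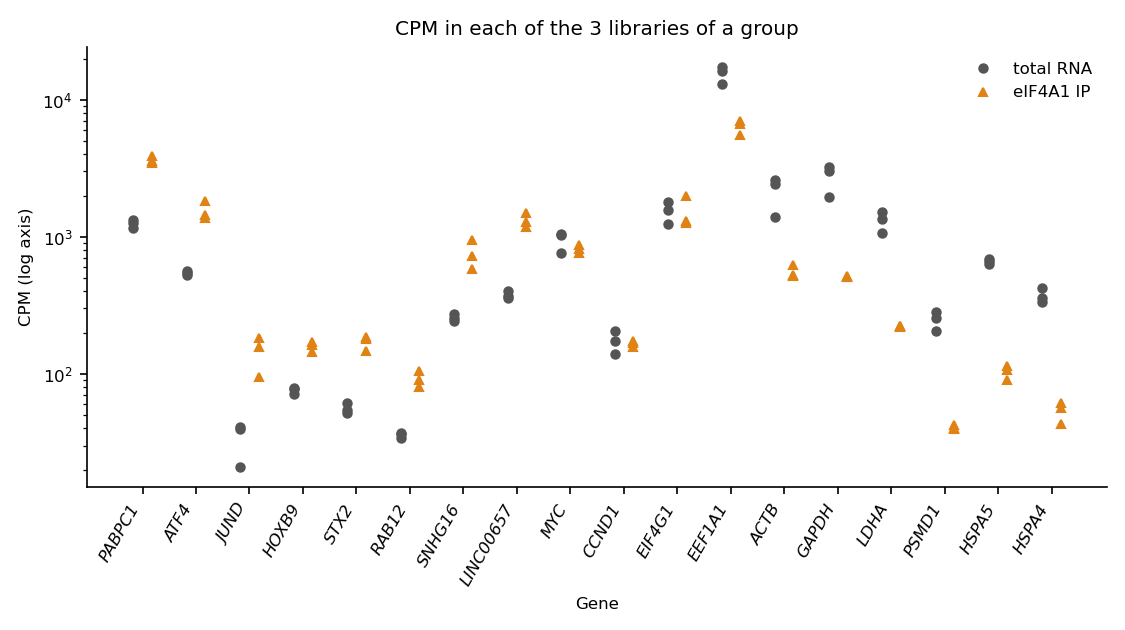
CPM (vertical axis, log scale) of 18 genes (horizontal axis) in each of the 3 libraries of total RNA (grey circles) and of the eIF4A1 IP (orange triangles). PABPC1 and ATF4 lie above their total RNA values in every IP library, GAPDH and HSPA5 lie below them, and for MYC, CCND1 and EIF4G1 the groups overlap.

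To ask which mRNA classes were enriched or depleted, 37 classes defined by symbol were described by their counts and their median log2 fold change. Over all genes 26.1% were higher and 26.5% lower, with a median of 0.04, and 28 of the 37 classes had medians below that of all genes. Classes were not matched for level. In the coding quintile of highest input level (median 167 CPM) 12.6% of genes were higher and 55.4% lower, with a median of -0.58. What part of a class median goes with level was not tested. Pair medians are medians of the log2 ratio of same-numbered IP and total RNA libraries, with a pseudocount of 0.5 CPM, which understates low genes.

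The translation machinery was lower in the IP. Its mRNAs were abundant, at a median input of 909 CPM (large subunit), 976 CPM (small subunit) and 242 CPM (initiation factors). Of 48 genes of the large ribosomal subunit 0 were higher and 35 lower (median -0.84, pair medians -1.24, -0.66 and -0.68). Of 32 genes of the small subunit 1 was higher and 16 lower (median -0.60, pair medians -0.97, -0.37 and -0.48). RPL3, of the large subunit, had 2868, 2898 and 2165 CPM in total RNA and 1781, 2038 and 1880 CPM in the IP, without overlap (log2 -0.48, FDR 0.0283). It was no longer called without any 1 of total RNA replicates 1 and 2 and IP replicates 1 and 3 (log2 -0.47 to -0.4, FDR 0.0683 to 0.103), with the 6 compared libraries alone (FDR 0.0671) and without a filter on counts (FDR 0.0969). RPS15 fell by 1.6 on the log2 scale. RPS29 was the member that rose, from 312, 308 and 171 to 435, 659 and 416 CPM (log2 0.93, SE 0.28, FDR 0.0129). It lost its call without total RNA replicate 3 (log2 0.70, FDR 0.0567) or IP replicate 2 (0.68, FDR 0.0759). RPS21 did not pass the test, and its groups overlapped, with 734, 717 and 370 CPM in total RNA and 596, 936 and 546 CPM in the IP (log2 0.19, SE 0.30, FDR 0.617). RPS2 had overlapping groups as well (log2 0.23, FDR 0.555). Ribosomal protein genes have processed pseudogenes, with which reads may have been shared.

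Of the 14 tested TOP mRNAs that encode other proteins, 13 were lower and 1 was higher (median -0.98). EEF1A1, the elongation factor that delivers aminoacyl-tRNA, had 16239, 17343 and 13060 CPM in total RNA and 5553, 6942 and 6692 CPM in the IP (chromosome 6, 74199031 to 74235310, log2 -1.28, SE 0.20, FDR 0.000134). VIM, the intermediate filament vimentin, was below total RNA in all IP libraries, at 544, 487 and 410 against 145, 135 and 143 CPM (log2 -1.77). PABPC1, the cytoplasmic poly(A)-binding protein, was the exception, and its groups stood far apart. It had 1334, 1253 and 1152 CPM in total RNA and 3447, 3896 and 3574 CPM in the IP (log2 1.55, SE 0.17, FDR 1.02e-05).

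The sequences around the annotated start are shown to set the pyrimidine tract beside these values. Each holds 10 nt before and 20 nt from the RefSeq start (GRCh38.p14), with the tract in capitals where the start is a C followed by at least 4 C or T.
EEF1A1 (chr6:73521013-73521042, - strand, log2 fold change -1.28): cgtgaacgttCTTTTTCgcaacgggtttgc
RPL36A (chrX:101391001-101391030, + strand, log2 fold change -3.57): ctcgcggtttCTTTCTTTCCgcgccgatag
RPS21 (chr20:62387093-62387122, + strand, log2 fold change 0.19): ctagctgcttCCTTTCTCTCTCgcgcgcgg
RPS29 (chr14:49598691-49598720, - strand, log2 fold change 0.93): agcgcgcagctggcagcggtggttgtttct
VIM (chr10:17228231-17228260, + strand, log2 fold change -1.77): atcgtgatctgggaggcccacgtatggcgc
Such a tract stood at 1104 of 27305 annotated starts (4.04%) and at 50 of the 73 starts of TOP mRNA classes that had an entry (68.5%). RPL3 (log2 -0.48) and RPS15 (log2 -1.6), which are not shown, had no such tract at the annotated start. RefSeq starts can differ from the start used in HEK293 cells, so no tract here says only that these letters are not at this position. Of the 50 genes of these classes with a tract, 0 were higher and 31 lower in the IP (median -0.79), and of the 23 without, 1 was higher and 18 lower (median -0.80). Among all other coding genes with a tract, 142 of 528 were higher (26.9%) and 177 lower (33.5%), with a median of -0.09.

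Initiation factors and tRNA charging enzymes were mostly lower too. Of 42 initiation factor genes 4 were higher and 27 lower (median -0.87). EIF3I, a subunit of the eIF3 scaffold, was lowest among members with at least 10 CPM, from 515, 568 and 354 to 76.5, 99 and 85.1 CPM (chromosome 1, 32686678 to 32710998, log2 -2.46). The 4 higher members were EIF1B (0.81) and EIF1 (0.69), of start codon selection, EIF4E3 (0.54), a cap-binding protein of the eIF4E family, and EIF4EBP2 (0.43), which competes with eIF4G for eIF4E. EIF4G1, the eIF4F scaffold that holds eIF4A1, had 1559, 1782 and 1230 CPM in total RNA and 1994, 1302 and 1262 CPM in the IP, groups that overlapped (log2 -0.00, SE 0.34, FDR 0.992). All 20 cytosolic aminoacyl-tRNA synthetases were lower, from -0.63 for CARS to -2.23 for EPRS, which went from 689, 767 and 833 to 143, 137 and 209 CPM.

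Protein folding, proteolysis and metabolism classes had medians of -1.3 or lower. All 8 subunits of the CCT chaperonin, which folds actin and tubulin, were lower (median -1.72), from -1.11 for TCP1 to -2.38 for CCT7. CCT7 had 920, 965 and 706 CPM in total RNA and 162, 172 and 162 CPM in the IP. Of 35 tested proteasome genes 31 were lower and 1 was higher (median -1.38). PSMD1, of the regulatory particle, had 254, 281 and 206 CPM in total RNA and 40.3, 39.7 and 42.3 CPM in the IP (log2 -2.60, SE 0.16), and the higher member was PSMB8, an inducible subunit near the limit of detection (0, 0.0608 and 0.0718 against 0.251, 0.301 and 0.273 CPM). Of 17 glycolytic genes 14 were lower and 0 higher (median -1.71). LDHA, lactate dehydrogenase, had 1343, 1513 and 1074 CPM in total RNA and 220, 222 and 223 CPM in the IP (log2 -2.56), and GAPDH had 3021, 3205 and 1942 against 511, 509 and 514 CPM (log2 -2.41). PFKL, PFKM and ENO2 did not pass the test. Of 17 tubulin and actin genes 12 were lower and 1 was higher (median -1.48), with ACTB at 2430, 2609 and 1395 CPM in total RNA and 516, 620 and 526 CPM in the IP (log2 -1.95). Of 14 ER chaperone genes 11 were lower and 1 higher (median -1.3, CRELD2 at 0.46, a call lost without total RNA replicate 3 or IP replicate 2, at 0.40 and 0.39). All 6 genes of the MCM helicase of DNA replication were lower (median -1.3).

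The nucleus-coded mRNAs of mitochondrial proteins were lower by smaller medians. Of 75 mitochondrial ribosomal protein genes 4 were higher and 45 lower (median -0.70, from MRPL33 at 1.33 to MRPS22 at -1.71 among members with at least 10 CPM). Of 78 respiratory chain genes 3 were higher and 38 lower (median -0.60), among them UQCRC1 (-2.09) and ATP5E (1.04, a call lost without total RNA replicate 3 or IP replicate 2, at 0.86 and 0.76). TIMM13, a carrier of the mitochondrial intermembrane space, had 253, 272 and 137 CPM in total RNA and 251, 385 and 178 CPM in the IP, and the groups overlapped (log2 0.30, FDR 0.432). The mRNAs coded in mitochondrial DNA, which the cytosolic machinery does not translate, were nearly absent from the IP. Their summed counts were 438, 682 and 279 in total RNA and 30, 6 and 17 in the IP, or 10.1, 17.2 and 9.47 against 0.749, 0.13 and 0.444 CPM of the raw totals. All 8 tested of 13 such genes were lower. As genes this rare in the IP passed the filter on counts through other libraries, this count adds nothing to the sums.

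Splicing proteins, matrix proteins and motors were lower less evenly. Of 32 Sm, LSm and SF3 genes 6 were higher and 20 lower (median -0.65), with LSM5 at 1.03 and SF3A1 at -2.12. Of the 34 protein-coding SR and hnRNP genes 3 were higher and 23 lower (median -0.63). Of 45 tested collagen and laminin genes 3 were higher and 21 lower (median -0.66, or -0.39 without a filter on counts and -0.44 without IP replicate 2), and COL4A2, a basement membrane collagen, stood at -2.33. Of 36 kinesin genes 7 were higher and 18 lower (median -0.41). Among those that averaged 10 CPM or more the extremes were KIF1C, which rose from 230, 262 and 201 to 464, 544 and 445 CPM (log2 1.07), and KIF5B, which fell from 464, 538 and 513 to 96.6, 132 and 208 CPM (log2 -1.79).

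DEAD-box helicases, the family of eIF4A1, were lower in 27 of 39 tested members and higher in 1 (median -0.96). DDX6 was the member that rose, from 166, 177 and 173 to 251, 249 and 296 CPM (chromosome 11, 118618472 to 118661873, log2 0.63, SE 0.15, FDR 0.00414). The EIF4A1 mRNA itself was counted at 9.26, 7.84 and 8.69 CPM in total RNA and 1.87, 2.19 and 1.31 CPM in the IP (chromosome 17, 7476142 to 7482324, log2 -2.26, SE 0.32, FDR 7.83e-05). Its locus lies within the readthrough gene SENP3-EIF4A1, so reads shared by both genes may be missing here. EIF4A2 had 377, 375 and 421 CPM in total RNA and 434, 469 and 462 CPM in the IP, without overlap, and did not pass the test (log2 0.22, SE 0.14, FDR 0.214). RNA counts give no check of which protein was precipitated.

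Genes of mRNA silencing were called in both directions. Of 12 Ccr4-Not genes 6 were lower and 3 higher (median -0.40). CNOT1, the scaffold, was lower in all IP libraries, at 563, 618 and 586 against 338, 268 and 380 CPM (log2 -0.84, SE 0.18, FDR 0.00178). The higher members were RQCD1 (0.64) and the deadenylases CNOT8 (0.62) and CNOT6 (0.51). Of 19 genes of decapping, P-bodies and miRNA repression 5 were higher (26.3%) and 6 lower (31.6%), shares near those of all genes (median -0.04). AGO4 (1.08), an Argonaute protein, DCP2 (0.97), the decapping enzyme, LSM1 (0.86), LSM14B (0.79) and DDX6 rose. DCP1B (-0.84), a decapping activator, and the 5′ to 3′ exonuclease XRN1 (-0.80) were among those that fell. DCP2 went from 165, 178 and 198 to 355, 307 and 401 CPM, and the groups did not overlap.

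**Figure D3:**
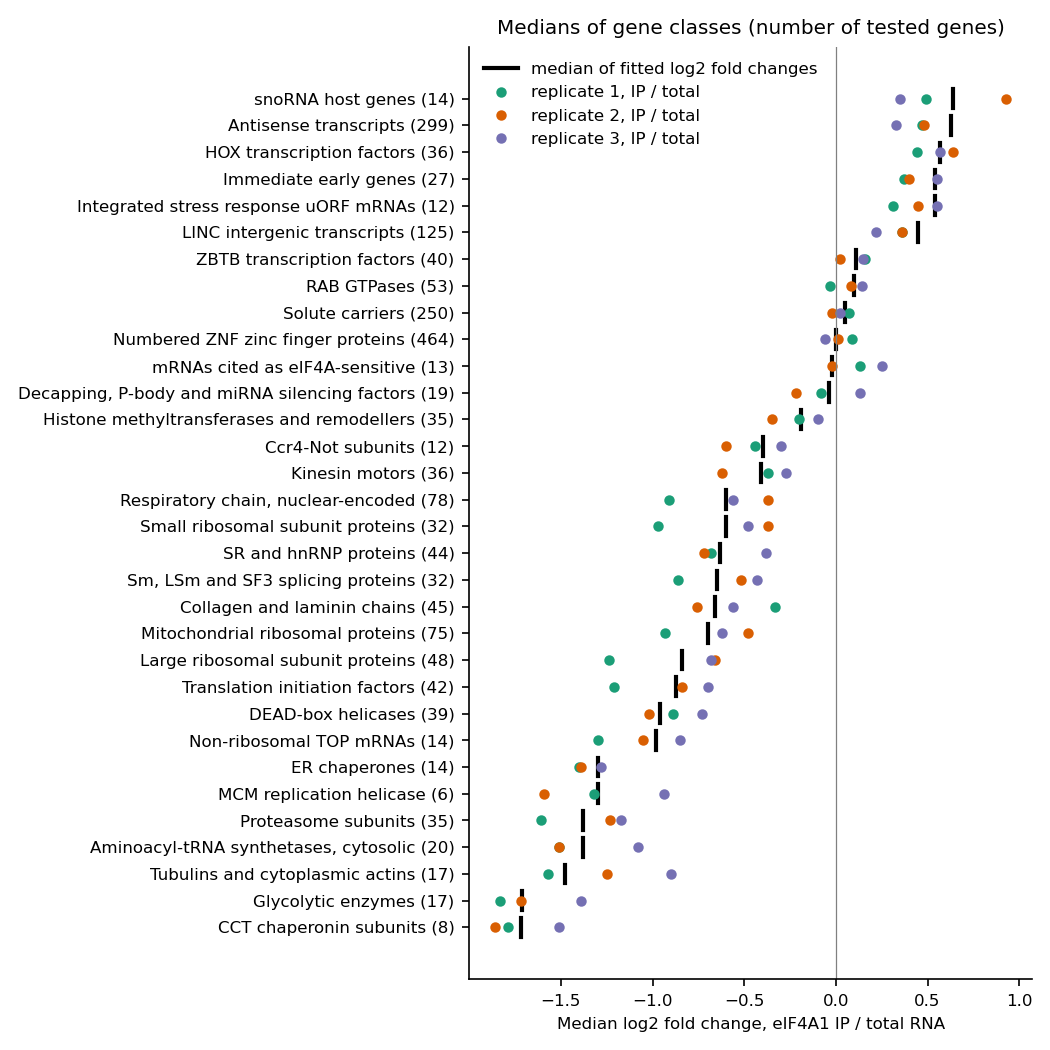
Log2 fold changes of the eIF4A1 IP over total RNA by gene class (horizontal axis), with the number of tested genes beside each name. Black bars are class medians of the fitted values, and coloured points are the medians of the 3 same-numbered library pairs. Classes under 5 genes or of low level (snoRNAs, histones) and mitochondrial mRNAs are not drawn. Chaperonin, glycolysis and tubulin and actin genes lie lowest, and HOX, immediate early and snoRNA host genes lie above 0.

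HOX, immediate early and integrated stress response genes were among the classes with medians above that of all genes. Of 36 tested HOX genes, homeodomain factors of body patterning, 18 were higher and 3 lower (median 0.57, pair medians 0.44, 0.64 and 0.57). HOXB9 had 71.0, 78.8 and 77.6 CPM in total RNA and 144, 163 and 170 CPM in the IP (chromosome 17, 46698518 to 46703720, log2 1.07, SE 0.14, FDR 3.77e-05), and HOXB2 reached 1.66. The lower members were HOXC9 (-0.97), HOXB4 (-0.59) and HOXD9 (-0.46). Of 27 tested immediate early genes 14 were higher and 1 was lower (median 0.54). JUND, an AP-1 subunit, had 41.1, 39.6 and 20.9 CPM in total RNA and 157, 184 and 94.4 CPM in the IP (chromosome 19, 18390504 to 18392432, log2 2.10, SE 0.35, FDR 0.000265), and KLF10 was the member that fell (-0.31, FDR 0.0385, a call lost without total RNA replicate 1 or 2 or IP replicate 1 or 2, at -0.33 to -0.25, with the 6 compared libraries alone, with TMM on coding genes and without a filter). MYC, of the same class, had 1050, 1027 and 759 CPM in total RNA and 821, 869 and 760 CPM in the IP, which overlapped (log2 -0.21, FDR 0.334).

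Of 12 mRNAs linked to the integrated stress response, 5 were higher and 1 was lower (median 0.54). ATF4, the transcription factor at its centre, had 563, 541 and 525 CPM in total RNA and 1443, 1817 and 1377 CPM in the IP (chromosome 22, 39915700 to 39918688, log2 1.51, SE 0.20, FDR 5.32e-05). PPP1R15A (1.09), which directs the phosphatase of eIF2α, DDIT3 (0.80), IFRD1 (0.80) and TRIB3 (0.71) also rose, and ASNS, asparagine synthetase, fell by 0.95. Of 13 mRNAs that earlier work describes as sensitive to eIF4A inhibition, 3 were higher (23.1%) and 1 was lower (7.69%). The share of higher members was near the 26.1% of all genes, and the median was -0.02, or 0.16 without IP replicate 2. BCL2, an inhibitor of apoptosis, had 6.42, 7.45 and 9.05 CPM in total RNA and 18.5, 14.0 and 16.7 CPM in the IP (log2 1.10, FDR 0.000163), ARF6 was at 0.96 and ODC1 at 0.65. ETS1 was the lower member (-1.6). CCND1, cyclin D1, did not pass the test, with 175, 206 and 140 CPM in total RNA and 158, 175 and 167 CPM in the IP (log2 -0.06, FDR 0.746).

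Zinc finger, solute carrier and RAB families had medians near that of all genes. Of 464 tested numbered ZNF genes 110 were higher (23.7%) and 92 lower (19.8%), with a median of 0.00. Their most abundant member, ZNF664, rose from 412, 431 and 480 to 1220, 1395 and 1368 CPM (log2 1.59). Of 250 tested solute carriers 63 were higher and 45 lower (median 0.05), of 53 RAB GTPases 14 and 10 (median 0.10, or -0.00 without IP replicate 2), and of 40 ZBTB genes 13 and 10 (median 0.11). RAB12, a GTPase of membrane traffic, had 36.3, 36.8 and 34.3 CPM in total RNA and 80.7, 105 and 90.6 CPM in the IP (log2 1.37, SE 0.16, FDR 1.88e-05). STX2, a syntaxin of membrane fusion, had 51.8, 54.7 and 61.1 against 147, 186 and 179 CPM (log2 1.61, SE 0.16, FDR 5.85e-06). For both, every IP library was above every total RNA library. Chromatin enzyme genes lay lower: of 35, 4 were higher (11.4%) and 13 lower (37.1%), with a median of -0.19. They ran from SETD8 (1.14, or 0.86 and not called without IP replicate 2), a histone H4 methyltransferase, to SMARCA4 (-2.22), the BRG1 remodeller.

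Noncoding RNAs split by kind. Of 547 tested genes with the type lncRNA 254 were higher (46.4%) and 66 lower (12.1%), with a median of 0.57, against 25% and 28.6% of 13683 coding genes, with a median of -0.02. These sets were not matched for level, and the coding quintile of lowest input level had 29.4% higher and 11.0% lower genes. The 2713 tested symbols without a place in the annotation were higher in 28.2% and lower in 18.6% (median 0.28). The 48 tested genes with the type lincRNA, an older name for intergenic lncRNAs, were higher in 22.9% and lower in 27.1% (median 0.16), near the shares of all genes. Among 299 tested of 831 symbols named as antisense 150 were higher (50.2%) and 24 lower (8.03%). Their median was 0.63, or 0.52 without a filter on counts, at a median input of 1.56 CPM. As the strand option of the counting is not stated, reads of the opposite gene may be among theirs. FGD5-AS1 had 123, 129 and 128 CPM in total RNA and 421, 442 and 430 CPM in the IP (log2 1.77, SE 0.13, FDR 1.18e-06). Of 125 tested of 551 intergenic LINC symbols 51 were higher and 17 lower (median 0.45, or 0.25 without a filter on counts), at a median input of 1.62 CPM. LINC00657, also named NORAD, rose from 358, 367 and 400 to 1483, 1174 and 1280 CPM (chromosome 20, 34633540 to 34638940, log2 1.81). Of 14 spliced noncoding hosts of snoRNAs 8 were higher and 1 was lower (median 0.64), with SNHG16 at 255, 274 and 244 against 586, 949 and 721 CPM (log2 1.54) and SNHG3 at -1.17.

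Of 4 tested symbols listed as references for nuclear lncRNAs 3 were lower and 0 higher (median -1.23). MALAT1, of nuclear speckles, had 70, 47 and 105 CPM in total RNA and 19.9, 14.5 and 16.3 CPM in the IP (log2 -2.13, SE 0.31, FDR 8.95e-05). KCNQ1OT1 (-1.57) and NEAT1 (-0.89) fell as well, and TUG1, which the annotation types as protein-coding, did not pass the test (0.10, FDR 0.705). Only 75 of 409 snoRNA and scaRNA symbols passed the filter on counts, of which 46 were lower and 10 higher (median -1.96, pair medians -0.52, -0.51 and -0.78). Members could pass the filter through the group where they were high. Summed over all 409, they made up 75.1, 74.0 and 101 CPM of the raw totals in total RNA and 61.7, 61.7 and 45.5 in the IP. SNORD17 rose against this direction, from 4.47, 5.35 and 4.34 to 20, 20.1 and 16.4 CPM (log2 1.99). Libraries were made by poly(A) selection, so counts of RNAs without a tail were low. 7SL and 7SK RNA together had 145, 25.6 and 44.2 CPM of the raw totals in total RNA and 3.62, 4.11 and 2.06 in the IP. Of 25 tested of 89 replication-dependent histone genes, whose mRNAs end in a stem-loop, 6 were lower (24.0%) and 1 was higher, so that the share of lower genes was under the 26.5% of all genes (median -0.52, or -0.34 and -0.32 without total RNA replicate 1 or IP replicate 3). Summed over all 89, they held 80.1, 69.4 and 52.6 CPM of the raw totals in total RNA and 64.5, 64.3 and 49.6 in the IP, and the groups overlapped.

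To describe what the enriched mRNAs shared, features of the annotated canonical transcript were set beside the fold change. Rank correlations are across genes, which are not independent replicates, and the features shared genes, libraries and base composition. CDS GC content had a rho of 0.33 with the log2 fold change over 13614 genes (0.32, 0.33 and 0.31 in pairs 1 to 3). In the quintile with the lowest CDS GC (median 41.3%) 12.9% of genes were higher in the IP and 42.9% lower. In the highest quintile (median 64.5%) 39.9% were higher and 9.62% lower. Purine tetramers in the CDS had a rho of -0.32: in the poorest quintile (median 1.49 per 100 nt) 39.3% of genes were higher and 12% lower, and in the richest (median 4.76) 13.3% and 42.5%. CDS GC and purine tetramers had a rho of -0.77 with each other. Within quintiles of CDS GC the tetramers kept a rho of -0.16 to -0.07 with the fold change, and within quintiles of tetramers GC kept 0.06 to 0.24.

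In the 5′UTR, where eIF4A1 is known to act, longer sequences and higher GC content went with higher fold changes. For 5′UTR length the rho was 0.20 (0.25, 0.14 and 0.21 in the pairs). Genes with the shortest 5′UTRs (median 31.0 nt) were higher in 17.1% and lower in 38.4%, and those with the longest (median 456 nt) in 34.5% and 16.0%. For 5′UTR GC content the rho was 0.23, and the quintile with a median of 80.0% GC had 43.8% higher and 12.8% lower genes. Purine tetramers of the 5′UTR had a rho of -0.11. The 3′UTR showed 0.25 for GC content and 0.02 for length, whose highest share of higher genes lay in the middle quintiles.

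CDS length (rho -0.17), exon number (rho -0.22) and level (rho -0.31) went with lower fold changes. For CDS length the pairs gave -0.06, -0.26 and -0.17. Of 304 single-exon genes 33.2% were higher and 16.1% lower, of genes with 2 to 4 exons 34.0% and 14.5%, and of those with 20 or more 14.9% and 37.5%. Hydrophobic segments in the protein, a measure of membrane insertion, had a rho of 0.05. Within quintiles of the input level rho was 0.16 to 0.30 for CDS GC, -0.29 to -0.19 for CDS tetramers, 0.13 to 0.30 for 5′UTR length and -0.20 to -0.11 for exon number. The total RNA libraries also differed among themselves by these features: the log2 ratio of total RNA replicate 3 to the other total RNA libraries had a rho of -0.48 with CDS GC, against 0.07 between replicates 1 and 2. For CDS tetramers that ratio gave 0.29, for 3′UTR length 0.34 and for 3′UTR GC -0.46. Between replicates 1 and 2 the rho with level was -0.23, beside the -0.31 of the IP. The part of these differences in the relations was not tested, and for CDS GC the pairs without replicate 3 gave 0.32 and 0.33.

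**Figure D4:**
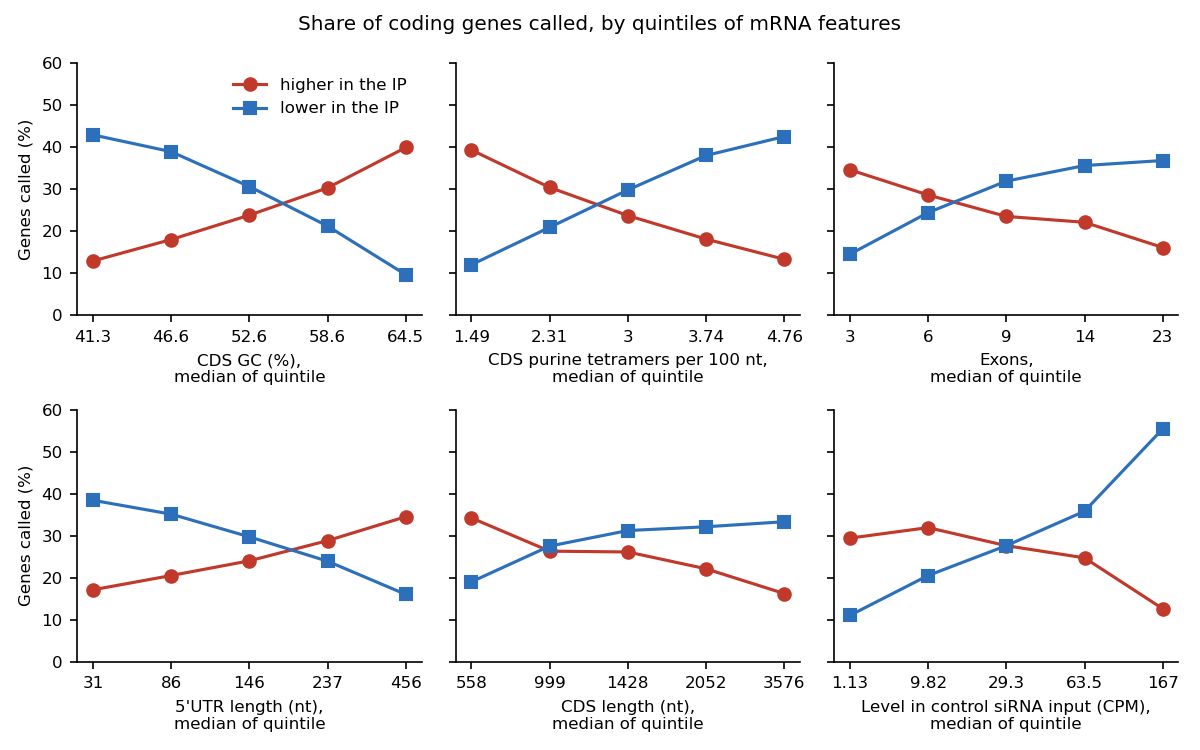
Share of coding genes called higher and lower in the eIF4A1 IP (vertical axis, %) in quintiles of 6 mRNA features (horizontal axes, marked with the median of each quintile). The share higher rises with CDS GC content from 12.9 to 39.9% and falls with input level from 29.4 to 12.6%.

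To ask how the enriched mRNAs are distributed over polysomes, the log2 ratio of polysomal to subpolysomal CPM was taken in each of the 4 control siRNA gradients, relative to the median of all genes tested, which is a readout from other samples. The 4139 genes higher in the IP had a median of -0.322 ± 0.140 (SD, n = 4 gradients) and the 4482 lower genes a median of 0.510 ± 0.185. Their difference was -0.832 ± 0.324 (-0.499, -0.643, -1.22 and -0.967 in gradients 1 to 4), negative in 4 of 4 gradients, with a two-sided exact sign-flip permutation p of 0.12 (2 of 16 sign assignments), the smallest that 4 gradients allow. CNOT1 had 447, 480, 26.9 and 477 CPM in the control polysomal libraries, so by this 1 mRNA the label of replicate 3 is uncertain. The library was kept as labelled, and without that gradient the difference was -0.703. From the lowest to the highest quintile of IP fold change the association was 0.585, 0.209, -0.0258, -0.185 and -0.387. A longer CDS can carry more ribosomes, and within quintiles of CDS length the difference was -1.07 to -0.668. Within quintiles of input level it was -0.79 to -0.314.

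**Figure D5:**
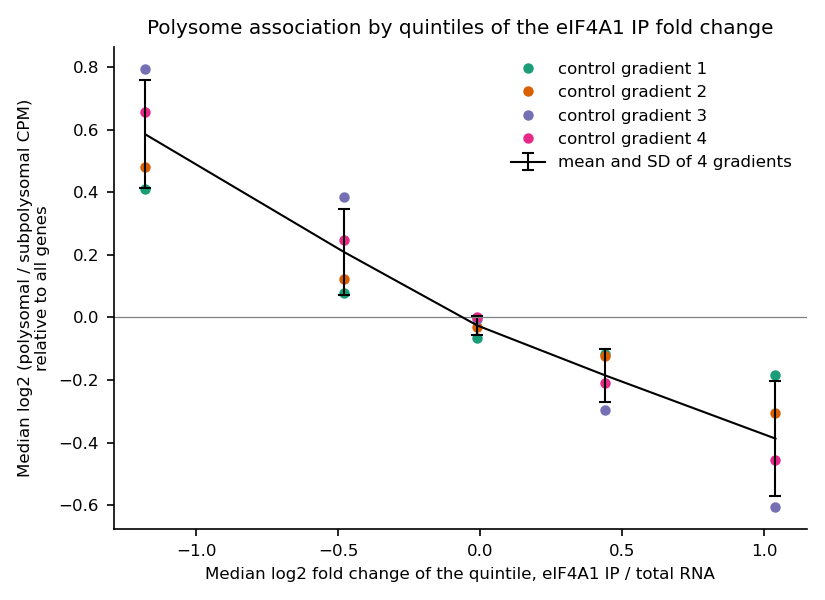
Polysome association (vertical axis, median log2 polysomal/subpolysomal ratio relative to all genes) against the median log2 fold change of each quintile of the eIF4A1 IP. Coloured points are the 4 control siRNA gradients, and the black line with bars is their mean and SD. The mean falls from 0.585 in the quintile most depleted from the IP to -0.387 in the quintile most enriched.

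To ask how the eIF4A1 IP differed from other IPs of the experiment, it was compared directly with those of its paralogue and of DDX6. In the eIF4A2 IP 170 genes were higher than in the eIF4A1 IP (0.973%) and 15 lower (0.0858%). With the replicate number as a block 1245 were higher (7.12%) and 1521 lower (8.70%). Whether equal numbers pair the libraries of different IPs was not tested. Without eIF4A1 IP replicate 2 or 3 the counts were 57 and 1, or 42 and 4, without eIF4A2 IP replicate 1 or 3 they were 104 and 3, or 66 and 1, and without eIF4A1 IP replicate 1 they were 189 and 35. The mRNA of the precipitated paralogue, EIF4A2, was higher in the eIF4A2 IP by 1.05 (log2, FDR 0.00477), and EIF4A1 by 1.91 (FDR 0.012). Beside these, RPL36A (2.88, FDR 0.00302), HNRNPU-AS1 (1.54) and MIR17HG (1.45) were called higher, all of which had fallen in the eIF4A1 IP, and LINC00657 (1.03), which had risen. RPL36A, HNRNPU-AS1 and MIR17HG had been chosen by their fall in the same eIF4A1 IP libraries, so their calls are not independent of that choice. The snoRNA class was higher in the eIF4A2 IP for 23 of 75 tested members, or 37 with the block. These RNAs were rare (median input 0.546 CPM), and members could pass the filter on counts through the group where they were high. No sum over all 409 symbols was made for the eIF4A2 IP, so this count describes the tested members only. Ribosomal protein genes went the other way with the block only: 64 of 80 were lower in the eIF4A2 IP than in the eIF4A1 IP, against 0 without it, with median differences of -0.68 (large subunit) and -0.61 (small subunit). Respiratory chain genes were lower in 45 of 78 with the block and in 2 without it.

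In the DDX6 IP 14 genes were higher than in the eIF4A1 IP (0.0801%) and 2 lower (0.0114%), or 1062 (6.08%) and 668 (3.82%) with the block. The lower genes, named after their values were seen, were ABHD15 (-0.98) and RP11-214O1.2 (-0.96). Of 19 decapping, P-body and miRNA genes 4 were higher in the DDX6 IP: DCP1B (1.74, FDR 0.0127), DCP1A (1.37), PATL1 (1.31), which bridges decapping factors, and DDX6 itself (0.95, FDR 0.033). With the block 7 were. DCP1B had been named for its fall in the same eIF4A1 IP libraries, so its call is not independent of that choice. Ribosomal protein genes were higher in the DDX6 IP for 50 of 80 with the block and for 0 without it. No call was made without eIF4A1 IP replicate 1, and 2 to 11 higher and 0 to 5 lower genes were called without any 1 of the other libraries of these IPs.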

How the data were processed

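RIP-Seq libraries (TruSeq Stranded mRNA, NextSeq500, bcl2fastq 2.0) were deposited as counts, which the authors made with TopHat2 on hg19 and htseq-count, 1 whole number per symbol and library. The strand option is not given in the sources used here. A deposited table of the authors' own edgeR comparisons was not used. Counts of all 12 RIP libraries were fitted with edgeR 4.0.16 (R 4.3.3, limma 3.58.1) after filterByExpr, with TMM factors, group means and quasi-likelihood F-tests. Tests were two-sided, with Benjamini-Hochberg FDR over 17474 genes and calls below 0.05. CPM of genes are TMM-adjusted, and class sums are CPM of the raw totals. Deviations from group means correlated between same-numbered eIF4A1 IP and total RNA libraries by 0.263, 0.623 and 0.683 over 10021 genes. No correlations between unlike numbers or between IPs were recorded, so these values do not settle whether the numbers pair the samples. A fit with the number as a block was an alternative. No libraries were duplicates.

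The gene list named in the text held genes that the study followed, the 10 largest increases and decreases with at least 10 CPM and no overlap, and per class its extremes and its most abundant member. Other class members were named after their values were seen. Comparisons, classes and members were chosen with earlier results of these data known. Features came from GENCODE 44 on GRCh37. Of 55765 symbols, 33177 matched a current symbol, 1860 an older one, 379 several and 20349 none, and a feature was present for 93.9 to 99.5% of coding genes. Starts came from RefSeq (GRCh38.p14). The fit was tested on simulated data.

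Alternatives were the 6 compared libraries alone, DESeq2 1.42.0, RLE factors, TMM on coding genes, no filter, the block, other pseudocounts or level limits, and each library left out.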

Additional observations from a re-analysis of the deposited data

Results flagged for a closer look

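The eIF4A1 IP was compared with the other IPs for each named gene, and 10 differences from the eIF4A1 IP passed the direct test (edgeR, FDR below 0.05). Between the eIF4A2 and the eIF4A1 IP, higher in the eIF4A2 IP, they were RPL36A (log2 2.88), EIF4A1 (1.91), HNRNPU-AS1 (1.54), MIR17HG (1.45), EIF4A2 (1.05), LINC00657 (1.03), BCL2 (0.81) and LINC00641 (0.64). RPL36A and EIF4A1 overlap readthrough genes and HNRNPU-AS1 an antisense partner. Between the DDX6 and the eIF4A1 IP, higher in the DDX6 IP, they were DCP1B (1.74) and DDX6 (0.95). RPL36A, HNRNPU-AS1, MIR17HG, LINC00641 and DCP1B had been named for their fall in the same eIF4A1 IP libraries. Their calls are therefore not independent of that choice.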

How the results depend on the processing

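The counts for the IP against total RNA stayed within 1.5 times under every alternative: 4543 higher and 4383 lower with the 6 compared libraries alone, 4503 and 4835 in DESeq2, 4400 and 4737 with RLE factors, 4912 and 4373 with TMM on coding genes, 4892 and 4822 without a filter, 5667 and 5598 with the replicate block (4553 and 4638 shared), and 3798 to 4435 and 4143 to 4557 with 1 library left out. Where an arm was left with 2 libraries, the spread was pooled over groups. Direct comparisons moved: eIF4A2 against eIF4A1 gave 541 higher and 159 lower genes in DESeq2, 1245 and 1521 with the block, and 42 to 189 and 1 to 35 with 1 library left out. DDX6 against eIF4A1 gave 362 and 177 in DESeq2, 1062 and 668 with the block, and 0 to 11 and 0 to 5 with 1 library left out. Among genes with an input of at least 10 CPM rho was 0.27 for CDS GC, 0.26 for 5′UTR GC, 0.21 for 3′UTR GC, -0.27 for CDS tetramers and -0.12 for 3′UTR tetramers. The polysome difference was -0.943 to -0.703 with 1 gradient left out, -0.888 with a pseudocount of 0.1 CPM and -0.845 with an input of at least 10 CPM.

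Of 114 named genes 6 turned sign under some alternative, none of them called: EIF4G1 (0.02 with 6 libraries, 0.05 with TMM on coding genes, 0.03 without a filter, -0.24 to 0.13 with 1 library left out), and with 1 library left out CCND1 (-0.19 to 0.08), TUG1 (-0.05 to 0.27), RPS21 (-0.10 to 0.35), TIMM13 (-0.05 to 0.53) and RPS2 (-0.05 to 0.39). A further 10 lost their call under at least 1 alternative. With the block RAB14 and HIST1H2BK gained a call (FDR 0.0483 and 0.00727), and it changed no other call among named genes. The causes were not tested. Of the 37 class medians, 26 to 29 lay below that of all genes under every alternative. The medians of 14 classes moved by more than the spread of their pair medians under some alternative. Without a filter these were mitochondrial genome mRNAs (-4.70), SR and hnRNP (-0.39), collagen and laminin (-0.39), RAB (0.18), snoRNA (-1.58), LINC (0.25), antisense (0.52) and nuclear lncRNAs (-0.84). With 1 library left out they were mitochondrial ribosomal proteins (-0.94), mitochondrial genome mRNAs (-6.11 to -4.67), HOX (0.43 to 0.70), mRNAs cited as eIF4A-sensitive (0.16), stress response mRNAs (0.42), collagen and laminin (-0.44), ER chaperones (-1.39 to -1.22), RAB (-0.00), histones (-0.63 to -0.32), snoRNA (-1.75 to -1.72) and LINC (0.54 to 0.58). Genes at 0 to a few counts in the IP, as in the mitochondrial genome, have fold changes set by the prior count.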
